A study of Mus musculus with 4 samples.

Results

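RNA levels of 9 genes for lipoprotein receptors and their relatives, Vldlr, Lrp1, Lrp5, Lrp6, Lrp8, Lrp10, Lrp12, Scarb1 and Sorl1, were described in follicular helper T (Tfh) cells of wild-type (WT) and Apoe-/- mice. They were taken by gene symbol from the deposited expression table, which lists 23997 genes, and all 9 were found. Most belong to the low-density lipoprotein (LDL) receptor family, Scarb1 is a scavenger receptor, and Sorl1 joins LDL receptor repeats to a sorting domain. The study set Tfh cells of mice prone to atherosclerosis against those of WT mice, with 2 RNA sequencing libraries per genotype. Cells came from lymph nodes and spleens of mice aged 13 weeks and of strain C57BL/6, and the genotypes differ by loss of Apoe, the gene of apolipoprotein E. The labels give no diet, no sorting markers, and no word on whether a library is 1 animal or a pool, so each p-value reflects no more than how these libraries scatter, and that scatter may be technical.

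Apolipoprotein E is a protein of plasma lipoproteins that is made by liver and macrophages. Receptors of the LDL receptor family bind it through cysteine-rich repeats, take the particle into endosomes and return to the cell surface. Vldlr, Lrp8 and Lrp1 are classical receptors for it, whereas Lrp5 and Lrp6 are known mainly as co-receptors for Wnt proteins. Binding was not measured here, and the genes are described by their RNA alone.

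None of the receptor genes that could be tested passed the test for a difference between genotypes. Of the 9, 8 had a mean FPKM (fragments mapped, scaled to transcript length and library size) of 1 or more over the 4 libraries and entered the fit of 11187 genes by limma, and 0 of these 8 had a Benjamini-Hochberg adjusted p under 0.05. The share called among all tested genes was 1.83%, so that a count of 0 among 8 is near the background. At an unadjusted p under 0.05 there was 1 of 8, Lrp1, where 19.9% of all tested genes reached it. The median difference of the 8 genes was 0.14 on the log2(FPKM + 1) scale and that of all tested genes was 0.00029. The groups did not overlap for 6 of the 8, against 50.4% of all tested genes. The Apoe-/- libraries were the higher ones for 4 of them (27.5% of all tested genes) and the lower ones for 2 (22.9% of all tested genes). Their levels spanned from 153 FPKM for Lrp10 to near 0 for Vldlr.

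The libraries were checked against their labels. Apoe was at 145 and 128 FPKM in WT and at 5.09 and 5.21 FPKM in Apoe-/- libraries (log2 difference -4.48 ± 0.11 SE, limma adjusted p = 0.000315). The T cell genes Cd3e, Cd3d and Cd4 summed to 991 to 1004 FPKM in WT and 1053 to 1054 FPKM in Apoe-/- libraries, and the Tfh genes Cxcr5, Bcl6, Pdcd1, Icos, Il21 and Sh2d1a to 976 to 1008 and 950 to 956 FPKM. Markers of other cells were present and differed. The 9 B cell markers summed to 325 to 330 FPKM in WT and 193 to 202 FPKM in Apoe-/- libraries. All 9 were below WT without overlap (22.9% of all tested genes were), and 4 of 9 passed as lower. In the counts that follow, rose means passed as higher, and 1.83% of all tested genes passed in either direction. The 13 macrophage and monocyte markers summed to 247 to 281 and 307 to 345 FPKM (1 of 13 rose), the 7 dendritic cell markers to 9.28 to 10.0 and 19.3 to 21.1 FPKM (1 of 5 tested rose), the 8 neutrophil markers found to 6.18 to 7.81 and 46.8 to 63.1 FPKM (3 of 3 tested rose), and the 8 markers of CD8 T and NK cells to 18.9 to 19.3 and 26.7 to 33.0 FPKM (0 of 5 tested passed). Some of the genes that rose reached a mean of 1 FPKM only through the Apoe-/- libraries, where they are high. These were the neutrophil gene Retnlg (0.124 and 0.297 against 3.67 and 4.80 FPKM) and the macrophage gene Vsig4 (0.148 and 0 against 2.25 and 4.72 FPKM). The 5 neutrophil markers that were not tested were below 1 FPKM in the mean. Of 9 stromal markers only the endothelial and leukocyte gene Pecam1 was tested. Read depth is not given by FPKM. FPKM totals were 522371 and 527056 in WT and 533866 and 551289 in Apoe-/- libraries.

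**Figure D1:**
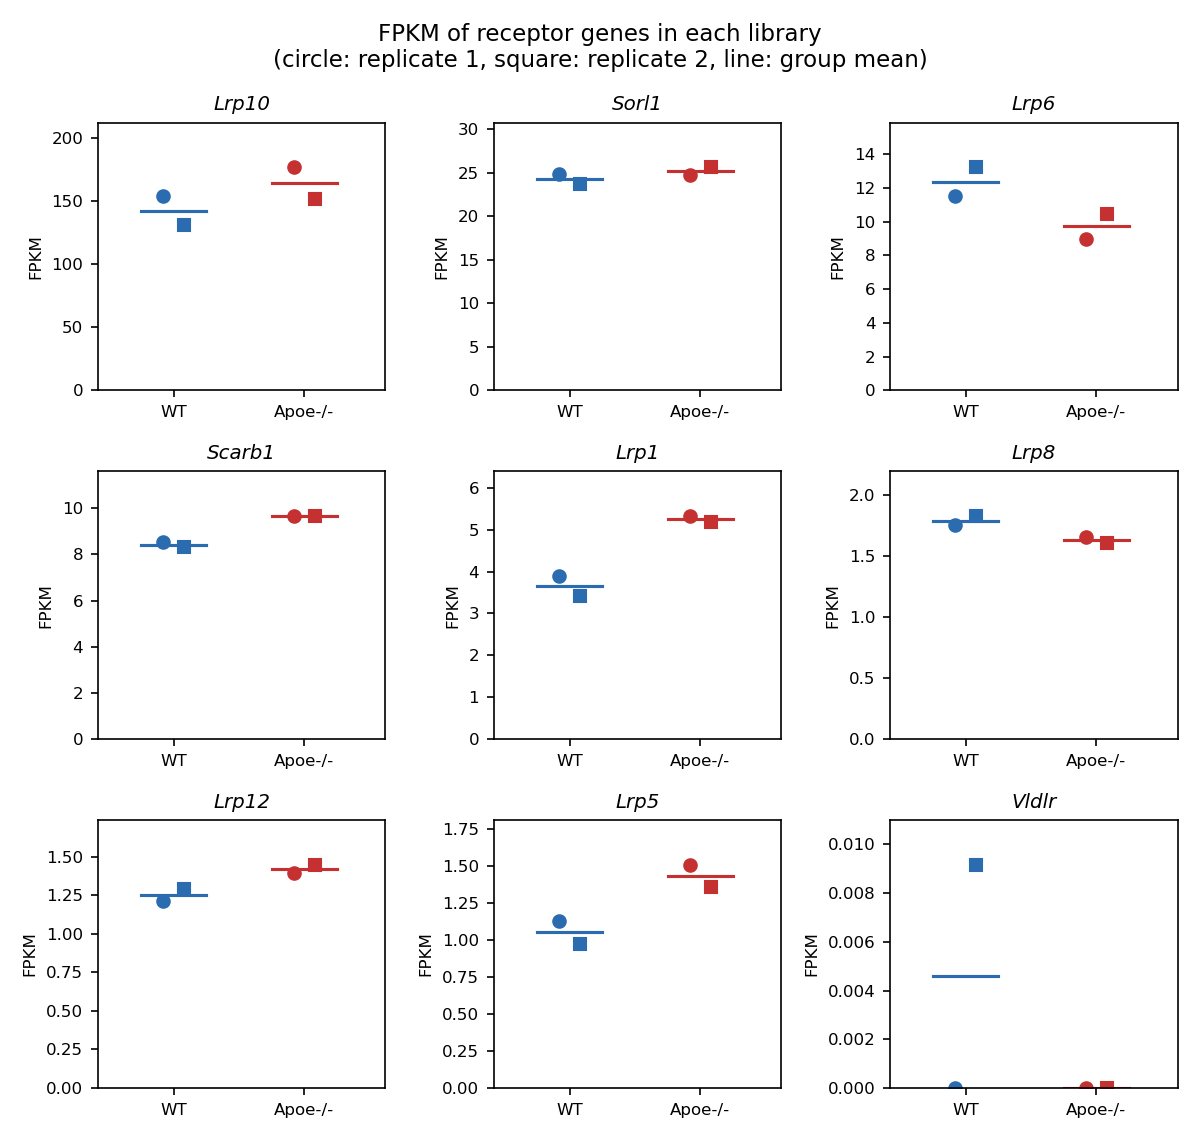
FPKM (y axis, from 0) of the 9 receptor genes by library. Blue marks WT and red Apoe-/-, a circle the library numbered 1 and a square that numbered 2, and a line the mean of the group. The libraries of a genotype lie close together for Scarb1 (8.52 and 8.33, then 9.65 and 9.66 FPKM) and farther apart for Lrp10 (154 and 131, then 177 and 152 FPKM).

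Lrp10 was the most abundant of the 9, with a mean of 153 FPKM over the 4 libraries, above 97.2% of the 16584 genes that were above 0 in at least 1 library. Sorl1 followed at 24.7 FPKM, Lrp6 at 11.1, Scarb1 at 9.04, Lrp1 at 4.45, Lrp8 at 1.71, Lrp12 at 1.34 and Lrp5 at 1.24 FPKM. FPKM is scaled to transcript length, so these levels can be set side by side. Most neighbours in this order had separate ranges over the 4 libraries. The exceptions were Lrp6 (8.99 to 13.2 FPKM) with Scarb1 (8.33 to 9.66 FPKM), and Lrp12 (1.21 to 1.45 FPKM) with Lrp5 (0.972 to 1.51 FPKM). At the lengths of the longest coding transcripts in GENCODE M21, the means stand for about 647 fragments in every 1000000 mapped for Lrp10, 265 for Sorl1, 103.5 for Lrp6 and 66.3 for Lrp1, but only 22.8 for Scarb1, 11.3 for Lrp8, 6.40 for Lrp5 and 5.67 for Lrp12. The values of Lrp5, Lrp8 and Lrp12 thus rest on the fewest fragments of the tested genes.

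Promoters are shown for 3 genes, those of the most abundant gene (Lrp10), of the gene at or near 0 (Vldlr) and of the gene with the largest difference between genotypes (Lrp1). Each is the first 250 bases of the gene's most upstream entry in a RefSeq promoter table (GRCm38.p6, the assembly also called mm10), written 5′ to 3′ on the gene's strand. Promoter entries were found for 5 of the 9 genes, Lrp1, Lrp8, Lrp10, Sorl1 and Vldlr. An entry belongs to 1 transcript start, which need not be the first base of the gene. The Lrp1 and Sorl1 stretches end just before the gene, those of Lrp10 and Vldlr run 10 and 4 bases into it, and that of Lrp8 begins 435 bases inside it. Capitals mark a GC box (GGGCGG on either strand).
Lrp10 (chr14:54463897-54464146, plus strand): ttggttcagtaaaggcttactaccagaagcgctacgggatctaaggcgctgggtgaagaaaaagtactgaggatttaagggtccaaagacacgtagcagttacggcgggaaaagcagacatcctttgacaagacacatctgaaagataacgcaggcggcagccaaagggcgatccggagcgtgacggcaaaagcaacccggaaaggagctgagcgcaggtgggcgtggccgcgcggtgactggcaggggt
Vldlr (chr19:27216234-27216483, plus strand): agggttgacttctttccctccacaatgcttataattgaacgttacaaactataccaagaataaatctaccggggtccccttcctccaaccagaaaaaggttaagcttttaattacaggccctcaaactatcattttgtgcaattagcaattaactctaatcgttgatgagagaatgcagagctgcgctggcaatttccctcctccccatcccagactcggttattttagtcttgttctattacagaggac
Lrp1 (chr10:127621149-127621398, minus strand): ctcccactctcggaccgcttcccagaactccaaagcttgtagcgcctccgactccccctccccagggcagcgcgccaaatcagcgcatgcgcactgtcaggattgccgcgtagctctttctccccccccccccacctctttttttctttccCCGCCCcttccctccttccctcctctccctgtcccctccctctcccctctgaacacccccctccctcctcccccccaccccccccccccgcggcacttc
The Lrp10 stretch held 55.6% G and C, that of Lrp1 67.2% and that of Vldlr 41.6%, against a median of 52% over 27018 promoters. Its ratio of observed to expected CpG pairs was 0.987, against 0.747 for Lrp1, 0.484 for Vldlr and a median of 0.379. A GC box was found once in Lrp1 and once in Sorl1 (33.0% of all promoters hold one), and none of the 5 stretches, that of Lrp8 being inside the gene, held a TATA box (TATAAA, 13.0%), a sterol element (TCACNCCAC, 1.03%) or an LXR element (AGGTCA repeated after 4 bases, 0.0111%), each searched on both strands. These are matches of letters only, and no binding was measured.

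Vldlr, the very-low-density lipoprotein receptor, which takes up triglyceride-rich particles in heart, muscle and fat and carries the Reelin signal in brain, was listed at 0 in WT replicate 1 and in both Apoe-/- libraries and at 0.00916 FPKM in WT replicate 2. It lies on chromosome 19 (27216480 to 27254231, GRCm38.p6). It was not tested, and no fold change is given against a group listed at 0. Vldlr RNA was thus at or near 0 in all libraries.

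Lrp8, also called ApoER2, is the other Reelin receptor and likewise binds apolipoprotein E. It lies on chromosome 4 (107802200 to 107876840). Its level was 1.75 and 1.83 FPKM in WT and 1.65 and 1.60 FPKM in Apoe-/- libraries. Both Apoe-/- libraries were below both WT libraries, and the difference was small: on the log2 scale it was -0.08 ± 0.13 SE (95% interval -0.40 to 0.24, limma adjusted p = 0.754). Low as it was, Lrp8 was, of the Reelin receptors Vldlr and Lrp8, the one with a mean of 1 FPKM or more, and Reln itself was not among the tested ligands. The GENCODE annotation places 2 antisense genes, Lrp8os1 and Lrp8os2, over it, and no strand setting is given, so their reads could not be told from its own.

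Lrp1 is a large endocytic receptor of macrophages, liver and neurons that clears remnant lipoproteins, alpha-2-macroglobulin and proteases. It lies on chromosome 10 (127538157 to 127621148). It was at 3.90 and 3.41 FPKM in WT and at 5.33 and 5.18 FPKM in Apoe-/- libraries, 43.6% higher in the mean. All Apoe-/- values were above all WT values, by more than the spread within either group. The log2 difference of 0.43 ± 0.12 SE (95% interval 0.11 to 0.74, unadjusted p = 0.0162) was the largest of the 8, yet it did not pass (limma adjusted p = 0.153), and 12.8% of tested genes differed by more in either direction. Macrophages and dendritic cells also express Lrp1, and the summed levels of their markers were higher in the same libraries: 307 to 345 against 247 to 281 FPKM for the 13 macrophage and monocyte markers, none of them at 0 throughout. The macrophage and monocyte markers were mixed: 5 of the 13 were above WT without overlap (27.5% of all tested genes were) and 2 were below (22.9%). Of the 13 markers, 1 passed (1.83% of all tested genes did). It was Vsig4, which reached a mean of 1 FPKM only through the Apoe-/- libraries. The 7 dendritic cell markers summed to 19.3 to 21.1 against 9.28 to 10.0 FPKM. All 5 of them that were tested were above WT without overlap (27.5% of all tested genes were). Of these, Zbtb46 had a WT mean of 0.949 FPKM and reached a mean of 1 only through the Apoe-/- libraries. The part of macrophages and dendritic cells in the Lrp1 value was not tested. In bulk RNA, more cells of a type and more RNA per cell cannot be told apart. An antisense gene, Gm16217, overlaps Lrp1, and its reads could not be told apart either.

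**Figure D2:**
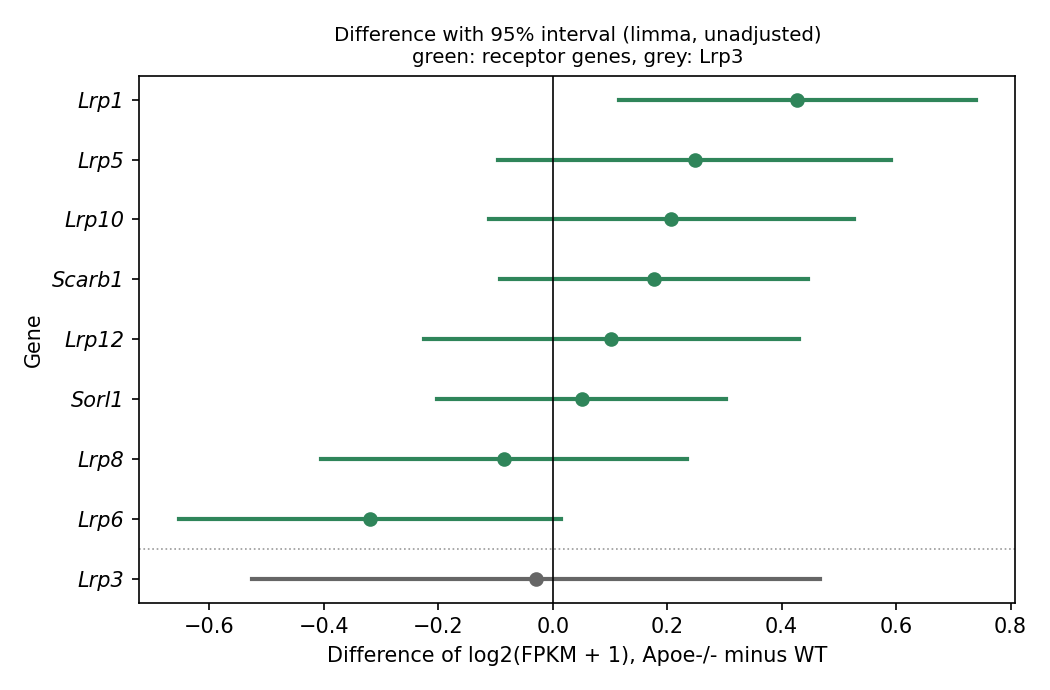
Apoe-/- minus WT difference of log2(FPKM + 1) (x axis; points) with limma's unadjusted 95% interval (lines) for the 8 tested receptor genes (green) and for their relative Lrp3 (grey). The intervals span 0 for all but Lrp1, whose interval runs from 0.11 to 0.74.

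Scarb1 encodes SR-B1, the receptor that takes cholesteryl ester from high-density lipoprotein without taking in the particle. It lies on chromosome 5 (125277087 to 125341094). It was at 8.52 and 8.33 FPKM in WT and at 9.65 and 9.66 FPKM in Apoe-/- libraries. The libraries of each genotype were very close and the groups were apart, with a mean 14.6% higher in Apoe-/- cells, but the log2 difference of 0.18 ± 0.11 SE (95% interval -0.09 to 0.45) did not pass (limma adjusted p = 0.423). Gm42633, annotated on the same strand, overlaps Scarb1. Of 12 other scavenger receptors, 6 were tested and 0 passed. The most abundant of them were the lysosomal Scarb2 (29.2 and 31.9 against 25.3 and 28.2 FPKM), the macrophage protein Cd68 (28.9 and 23.3 against 25.3 and 25.0 FPKM) and the fatty acid transporter Cd36 (3.57 and 4.61 against 3.75 and 8.82 FPKM). In mean level Scarb1 was thus below Scarb2 and Cd68 and above Cd36.

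Sorl1, a sorting receptor that carries cargo such as the amyloid precursor protein and lipoprotein lipase between Golgi and endosomes and that binds apolipoprotein E, had the smallest difference of the 8 tested genes. It lies on chromosome 9 (41964709 to 42124297). Its level was 24.8 and 23.7 FPKM in WT and 24.7 and 25.6 FPKM in Apoe-/- libraries. The groups overlapped, and the log2 difference was 0.05 ± 0.10 SE (95% interval -0.20 to 0.30, limma adjusted p = 0.815). An antisense gene, Gm16214, overlaps Sorl1. Of its 4 relatives with a VPS10 sorting domain, only Sort1, which encodes sortilin, was tested (1.43 and 1.23 against 1.63 and 1.60 FPKM, limma adjusted p = 0.544), and Sorcs3 was listed at 0 throughout. Of 13 retromer, sorting nexin and GGA adaptor genes, which act on such receptors in endosomes and Golgi, all 13 were tested and 0 passed (median difference -0.11). The most abundant were Snx2 (136 and 161 against 119 and 151 FPKM), Snx5 (111 and 139 against 92.6 and 127 FPKM) and the retromer subunit Vps29 (49.6 and 56.3 against 42.2 and 54.9 FPKM), each of which overlapped between genotypes. Of the 13, 1 was above WT without overlap (27.5% of all tested genes were) and 2 were below (22.9%). Gga2, named after its values were seen, was below, at 5.96 and 6.23 against 3.79 and 3.62 FPKM (limma adjusted p = 0.0838).

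Lrp10 and Lrp12 form a branch of the family with CUB domains beside the LDL receptor repeats, and Lrp10 is known to move between Golgi, endosomes and surface. Lrp10 lies on chromosome 14 (54464137 to 54470292) and Lrp12 on chromosome 15 (39870589 to 39944015). Lrp10 was at 154 and 131 FPKM in WT and at 177 and 152 FPKM in Apoe-/- libraries. WT replicate 1 exceeded Apoe-/- replicate 2, so the groups overlapped, and in both genotypes replicate 1 was the higher library. The log2 difference was 0.21 ± 0.13 SE (95% interval -0.11 to 0.53, limma adjusted p = 0.428). An antisense gene, Gm10366, overlaps Lrp10. Lrp12 was at 1.21 and 1.29 FPKM in WT and at 1.39 and 1.45 FPKM in Apoe-/- libraries, without overlap, and its log2 difference of 0.10 ± 0.13 SE (95% interval -0.23 to 0.43) did not pass either (limma adjusted p = 0.704). Lrp10 was thus far above Lrp12 in level, and neither passed the test for a difference by genotype.

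Lrp5 and Lrp6 pair with Frizzled proteins as co-receptors for Wnt and share most of their domain order. Lrp5 lies on chromosome 19 (3584825 to 3686585) and Lrp6 on chromosome 6 (134446476 to 134566913). Lrp6 was at 11.5 and 13.2 FPKM in WT and at 8.99 and 10.5 FPKM in Apoe-/- libraries. Both Apoe-/- values were below both WT values, and the mean was 1.27-fold lower (log2 difference -0.32 ± 0.13 SE, 95% interval -0.65 to 0.01), which did not pass (limma adjusted p = 0.267). Lrp5 was at 1.13 and 0.972 FPKM in WT and at 1.51 and 1.36 FPKM in Apoe-/- libraries. Here the Apoe-/- values were the higher ones, by 36.5% in the mean (0.25 ± 0.14 SE, 95% interval -0.10 to 0.59), and again the test was not passed (limma adjusted p = 0.387). The opposite signs were noticed after the values were seen: the ratio of Lrp6 to Lrp5 was 10.2 and 13.6 in WT and 5.97 and 7.69 in Apoe-/- libraries. This ratio is a description, with no test. The 9 B cell markers were all below WT without overlap (22.9% of all tested genes were) in the libraries where Lrp6 was lower, and 4 of 9 passed. Their part in the Lrp6 value was not tested.

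No other tested gene of the Wnt receptor complex passed. Of 45 genes on the list (Frizzled and Dishevelled proteins, the destruction complex, Wnt antagonists and TCF factors), 22 were tested, 0 passed and the median difference was 0.01. Tcf7, which encodes the T cell factor TCF-1, was at 636 and 573 FPKM in WT and at 646 and 576 FPKM in Apoe-/- libraries. Next in level were the casein kinase genes Csnk1a1 (164 and 193 against 135 and 171 FPKM) and Csnk1g2 (118 and 96.2 against 124 and 107 FPKM). In each of these 3 the genotypes overlapped. Among genes named after their values were seen, Axin2, a common reporter of Wnt signaling, was at 17.3 and 16.3 against 17.9 and 17.1 FPKM (limma adjusted p = 0.804), and Rnf43, a ligase that removes Frizzled and Lrp6 from the surface, at 31.7 and 27.2 against 20.6 and 20.1 FPKM (limma adjusted p = 0.104).

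**Figure D3:**
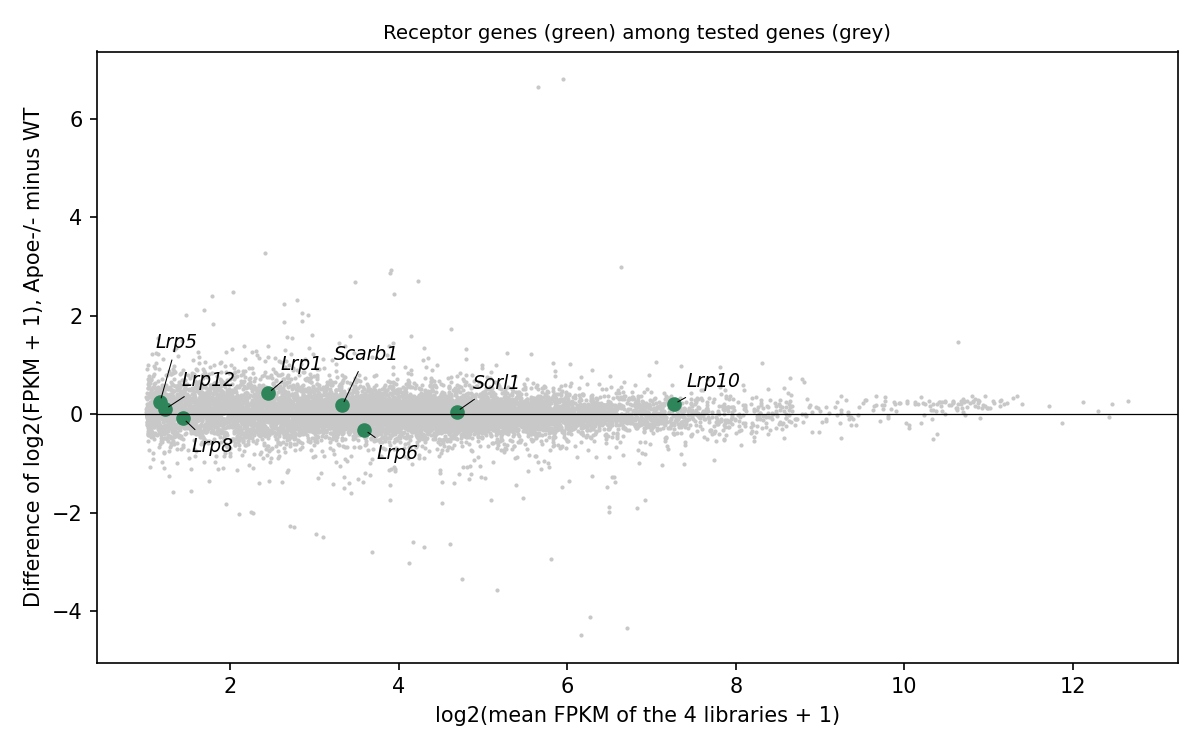
Difference of log2(FPKM + 1), Apoe-/- minus WT (y axis), against log2 of the mean FPKM plus 1 (x axis) for tested genes (grey), with the 8 tested receptor genes in green. The receptor genes lie within the bulk of genes, between -0.32 (Lrp6) and 0.43 (Lrp1).

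For comparison 5 further genes of the LDL receptor family were examined, of which 1 was tested and 0 passed. Lrp3 was at 1.64 and 1.32 against 1.84 and 1.06 FPKM (limma adjusted p = 0.953), with a wide spread in Apoe-/- cells. Lrp4 and Lrp11 were below 1 FPKM in the mean, and Lrp1b and Lrp2 were listed at 0 throughout.

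Ligands of these receptors were mostly low in the libraries. The list of 23 genes also holds Lipe, which encodes an intracellular lipase and not a ligand. Of the 23 genes 7 were tested, Lipe among them, and 1 rose and 1 fell. The one that fell was Apoe itself. Apoc1, an apolipoprotein gene beside Apoe on chromosome 7, rose from 8.73 and 12.1 to 38.2 and 34.7 FPKM (log2 difference 1.73 ± 0.17 SE, limma adjusted p = 0.0185, and 0.0584 with no filter on FPKM). Lpl, the lipase that anchors lipoproteins to these receptors, named after its values were seen, was at 1.22 and 0.998 FPKM in WT and at 2.85 and 3.96 FPKM in Apoe-/- libraries, without overlap, and did not pass (limma adjusted p = 0.0572). Lpl did not pass in 8 of the 12 alternatives in which it was tested, such as that with no filter on FPKM (limma adjusted p = 0.104). It passed narrowly with no variance trend (limma adjusted p = 0.0492), and it passed with a block for replicate number (limma adjusted p = 0.0107). The other alternatives in which it passed left 1 library in the Apoe-/- group (log2 differences 1.23 and 0.87). With 1 library left out its log2 difference ranged from 0.87 to 1.23. Macrophages, whose markers were higher in sum but mixed member by member as given above, also express Apoc1 and Lpl, and their part in these values was not tested.

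Genes that fold, sort or degrade the receptors did not pass. Of 23 symbols 22 were found and 18 tested, 0 passed, and the median difference was 0.01. Of the 18, 7 were above WT without overlap (27.5% of all tested genes were) and 4 were below (22.9%). The most abundant was Psen2, a subunit of a protease that cuts such receptors within the membrane (58.8 and 57.4 against 64.7 and 60.6 FPKM). Next were the endosomal adaptor Snx17 (55.0 and 52.9 against 63.1 and 57.1 FPKM) and the sheddase Adam10 (35.6 and 47.3 against 31.6 and 42.3 FPKM). Mylip, which encodes the ligase IDOL that degrades Vldlr and Lrp8 proteins, was named after its values were seen. It was at 22.5 and 23.0 FPKM in WT and at 27.0 and 27.6 FPKM in Apoe-/- libraries, apart by more than the spread within each group (log2 difference 0.25 ± 0.10 SE, unadjusted p = 0.0469, limma adjusted p = 0.246). Numb, on the same list and also named after its values were seen, differed by more, at 14.7 and 14.5 against 11.7 and 11.2 FPKM. Its log2 difference was -0.33 ± 0.10 SE (limma unadjusted p = 0.0230, limma adjusted p = 0.178). RNA does not show how much receptor protein was present.

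Of 16 genes that handle cholesterol after uptake, all 16 were tested, 1 rose and 1 fell, with a median difference of 0.01. Abca1, the cholesterol exporter, rose from 4.13 and 4.53 to 14.5 and 15.6 FPKM (1.59 ± 0.12 SE, limma adjusted p = 0.0107). Insig1, which holds SREBP factors in the endoplasmic reticulum, fell from 44.3 and 45.5 to 23.2 and 21.8 FPKM (limma adjusted p = 0.0198, and 0.0545 without WT replicate 1 and 0.0663 without WT replicate 2). Thus among the genes of lipoprotein uptake and its aftermath described here, those that passed were Apoe, Apoc1, Abca1 and Insig1, and none of the 8 tested receptor genes.

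**Figure D4:**
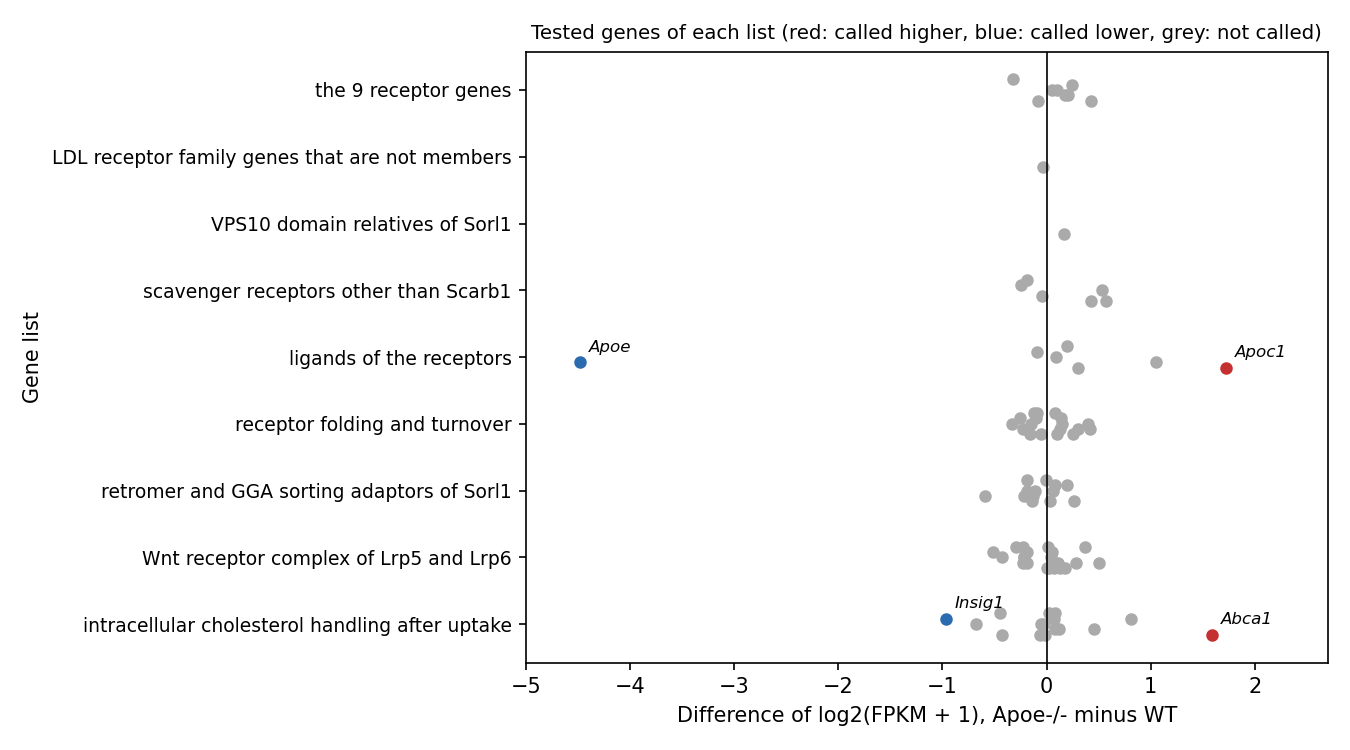
Difference of log2(FPKM + 1), Apoe-/- minus WT (x axis), of each tested gene in the receptor genes and the 8 comparison lists (y axis); red points passed as higher, blue points as lower and grey points did not pass. All receptor genes are grey and lie between -0.32 and 0.43, and the 4 coloured genes are Apoe, Apoc1, Insig1 and Abca1.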

How the data were processed

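RNA of Tfh cells was sequenced in 2 WT and 2 Apoe-/- libraries. The deposited table gives FPKM per gene symbol and library as computed by the authors. Per the submitters' processing notes, TopHat2 2.0.13, Cuffdiff 2.2.0 and CASAVA 1.8.2 were used with genome build mm10. For their order, the annotation and strand settings, nothing is given in the sources used here. The unit is scaled for length and library size, so depth is unknown and no count model was used. The rows of Bcl6 and Cxcr5 have a space in place of a tab and were split on white space. Genes whose FPKM averaged 1 or more across libraries were analysed as log2(FPKM + 1), which understates changes of low genes, with limma 3.58.1 in R 4.3.3 (mean-variance trend, two-sided, Benjamini-Hochberg over 11187 genes, threshold 0.05). The procedure was tested on simulated data. Intervals are 95% and unadjusted. SE is limma's moderated standard error. Figures were drawn with matplotlib 3.10.9.

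The receptor genes and comparison lists were chosen with earlier results of these data known, so no test was run over a list. Named with values were the 9 receptor genes, Apoe, and of each list of pathway genes the members that passed or, where none did, up to 3 of the most abundant; other genes are said to be named after their values were seen. Of the list symbols, Mesd, Trac, Adgre1 and Ly6g had no row under that name, and Mesdc2 and Emr1 are older names of Mesd and Adgre1. Gene positions come from RefSeq (GRCm38.p6), with all 9 genes matched, and overlapping genes and transcript lengths from GENCODE M21. No batch is given in the labels. The 13 alternatives changed the pseudocount, the filter, the scaling, the variance model, the replicate block or the libraries used. A withheld gene of the comparison lists entered the fit but is not reported here.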

Additional observations from a re-analysis of the deposited data

How the results depend on the processing

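Every one of the 8 tested receptor genes kept the sign of its difference in all alternatives in which it was tested. Of 100 such values, 97 stayed on the same side of the threshold and 3 passed it. All 3 came from the replicate block. No label says that libraries of one number share an animal or day, and differences between replicates 1 and 2 correlated at 0.214 across tested genes between genotypes. With the replicate block, 3 of the 8 receptor genes were called against 0 without it: Lrp1 (0.43, limma adjusted p = 0.0257), Lrp6 (-0.32, adjusted p = 0.0220) and Lrp10 (0.21, adjusted p = 0.0114). In that fit 3684 of all 11187 tested genes were called, so 3 of 8 is near the background. The ligand gene Lpl (adjusted p = 0.0107) and the ligase gene Rnf43 (adjusted p = 0.00704) were among those called. The block also leaves fewer residual degrees of freedom than the main fit. Over all genes, 205 were called in the main analysis (106 higher, 99 lower), 76 (35 and 41) with no filter on FPKM, 122 (51 and 71) with a mean FPKM of 5 or more, and 121 to 618 with 1 library left out, the lone library being assumed to vary like the other group: 126 without WT replicate 1, 121 without WT replicate 2, 421 without Apoe-/- replicate 1 and 618 without Apoe-/- replicate 2. The cause was not tested. In each of these 4 the count of receptor genes called was 0. With 1 library left out the Lrp10 difference ranged from 0.09 to 0.32, that of Lrp6 from -0.42 to -0.22 and that of Lrp1 from 0.35 to 0.50. Vldlr entered only the fit with no filter, where it did not pass, and with a mean FPKM of 5 or more only Lrp6, Lrp10, Scarb1 and Sorl1 were tested. FPKM holds no depth, so no counting error is given. With 2 libraries per group, not passing the test does not show equality.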
